A study of Danio rerio with 6 samples.

Results

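Glutathione S-transferases (GSTs) join the tripeptide glutathione to reactive or poorly soluble compounds, so that these can be carried out of the cell. The soluble enzymes fall into classes named by Greek letters (theta, pi, omega, rho and others), the kappa class works in mitochondria and peroxisomes, and the microsomal enzymes (mgst genes) belong to the MAPEG family of membrane proteins, whose members also act on lipid hydroperoxides and leukotrienes. Many GST genes of vertebrates are induced by the transcription factor Nrf2, and in zebrafish *gstp1* is a standard readout of this response.

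The description covers a list of 10 zebrafish GST names: *gstt1a*, *gstt1b* and *gstt2* (theta), *gstp1* (pi), *gsto1* (omega), *gstr* (rho), *gstk1* (kappa), and the membrane-bound *mgst1.2*, *mgst2* and *mgst3b*. Of these names, 9 matched a single row among the 32057 Ensembl gene IDs of the count table, and 1 of the 9, *gstp1*, matched through RefSeq, which lists it as a synonym of *gstp1.2* (ENSDARG00000104068). No single row carries the name *mgst1.2*. The symbol MGST1 stands for 2 IDs there, which are described with the wider family and are not counted among the 9.

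Transcripts were measured by SMART-seq in regenerated tail fins of zebrafish larvae, in 3 libraries of the rapamycin group (replicates 4 to 6) and 3 of the control group (replicates 1 to 3). The rapamycin larvae were kept in 1 µM rapamycin, an inhibitor of mTOR complex 1, from 2 dpf, and the control larvae were wild type and received the solvent DMSO. In the labels the rapamycin group carries the genotype "mtor inhibition", a drug treatment and not a mutation, and whether the larvae were of the AB line or a transgenic line, both of which the study used, is not stated for these libraries. Both groups were amputated at 3 dpf, and fins were collected at 24 hpa and pooled, 50 to a library. The study calls the pools biological replicates and does not say whether they came from separate clutches, so the p-values measure the spread between these pools.

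The libraries held 49055607 to 54162044 counts. After a filter on low counts 19778 genes were tested, and 5.24% of them were called (adjusted p under 0.05 from edgeR's quasi-likelihood test), 1.97% higher and 3.27% lower in the rapamycin libraries. Without adjustment, 4622 of the 19778 genes had a p under 0.05 in that test, a count not given here for other fits. Principal components were taken from log2 values of TMM-scaled CPM (a gene's counts relative to the library total, in parts per 1e6). On component 1, with 45% of the variance, control replicate 1 scored 8.84, against 77.4 and 92.4 for control replicates 2 and 3. The rapamycin libraries lay between -60.0 and -59.1 there. On component 2 the control libraries were also spread, at 71.4, 36.0 and -64.5 for replicates 1, 2 and 3. Control replicates 2 and 3 were thus no close pair, and the rapamycin libraries lay between -31.1 and -4.44. The fin markers of the epidermis and of the fin mesenchyme were found in every library, apart from *krt1-19d*, at 0 in rapamycin replicate 5 and control replicates 1 and 3. Their summed levels over 12 and 10 matched genes were 51410 to 61790 and 103700 to 112400 CPM in the rapamycin libraries. In the control libraries the sums were 42900 to 55060 and 87900 to 151100 CPM. The largest term was *krt4* in the epidermal sum, and nearly all of the mesenchymal sum was *col1a1a*, *and1* and *and2*. Of the 12 epidermal markers, 11 had a log2 fold change above 0 and 1, *cdh1*, rose (1.01, edgeR adjusted p = 0.0414). Of the 10 mesenchymal markers, 5 lay above 0 and 5 below, none passed in edgeR and 3 were below an unadjusted p of 0.05. Hepatocyte markers, read because liver is rich in GSTs, summed to 9.30 to 12.2 CPM in the rapamycin libraries and 7.38 to 27.0 CPM in the control libraries over 12 genes. The 11 matched macrophage markers summed to 74.6 to 79.6 CPM in the rapamycin libraries and 94.0 to 152 CPM in the control libraries, and 5 of 10 tested ones fell. These 5 were *mhc2dab*, *c1qa*, *havcr1*, *c1qb* and *ctss2.1*. The complement genes *c1qa* and *c1qc* were at 0 in rapamycin replicates 4 and 6, and *c1qc* did not pass (edgeR adjusted p = 0.0554). In contrast, *csf1ra* (0.76, edgeR adjusted p = 0.168) and *marco* (0.20, edgeR adjusted p = 0.834) had log2 fold changes above 0. For *csf1ra* the rapamycin libraries lay above all control libraries, and for *marco* the groups overlapped. The 5 matched erythrocyte markers summed to 21.3 to 37.1 CPM in the rapamycin libraries and 84.7 to 105 CPM in the control libraries, and 2 of 3 tested ones fell. The 7 matched neutrophil markers summed to 626 to 811 CPM in the rapamycin libraries and 342 to 533 CPM in the control libraries, and 2 of 7 tested ones, *il6r* and *mmp13a*, rose. The largest term of this sum was *mmp9* in all 6 libraries, and *lyz* (-0.44) and *npsn* (-0.13) had log2 fold changes below 0 that did not pass (edgeR adjusted p = 0.577 and 0.833). The 7 matched ionocyte markers summed to 334 to 359 CPM in the rapamycin libraries and 131 to 244 CPM in the control libraries, nearly all of it *ca2*, which rose, while the other 5 tested markers had log2 fold changes below 0 and did not pass in edgeR. The 7 matched muscle markers summed to 204.5 to 272 CPM in the rapamycin libraries and 281 to 359 CPM in the control libraries. Of 6 tested ones, all 6 had log2 fold changes below 0, none passed in edgeR and 3 were below an unadjusted p of 0.05. Among these 3, *pvalb1* and *pvalb2* were highest in control replicate 1 (17.8 and 13.7 CPM), and their groups overlapped. The part of these cell types in the GST values was not tested, and fewer cells of a type cannot be told apart from less RNA per cell in pooled fins.

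Of the 9 GST genes, *gstt1b*, *mgst2* and *gstk1* fell, *gstt2* rose, and 5 did not pass. The theta class thus held a call in each direction. All 9 passed the low-count filter. The 4 calls make 44.4% of the 9 genes, against 5.24% of all tested genes, and all 4 also changed by 1 or more on the log2 scale, a size reached by called genes that made up 4.1% of all tested genes (1.49% higher and 2.61% lower). The log2 fold change was below 0 in 7 of the 9, with a median of -0.64, against a median of 0.0014 over all tested genes. In 6 of the 9 genes the libraries of the groups did not overlap, which held for 30.7% of all tested genes. The rapamycin libraries were the higher ones for 2 of these and the lower ones for 4, against 14.8% and 15.9% of all tested genes. The genes were listed with earlier results of these libraries known, so these counts describe the list and are no independent evidence of its direction.

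**Figure D1:**
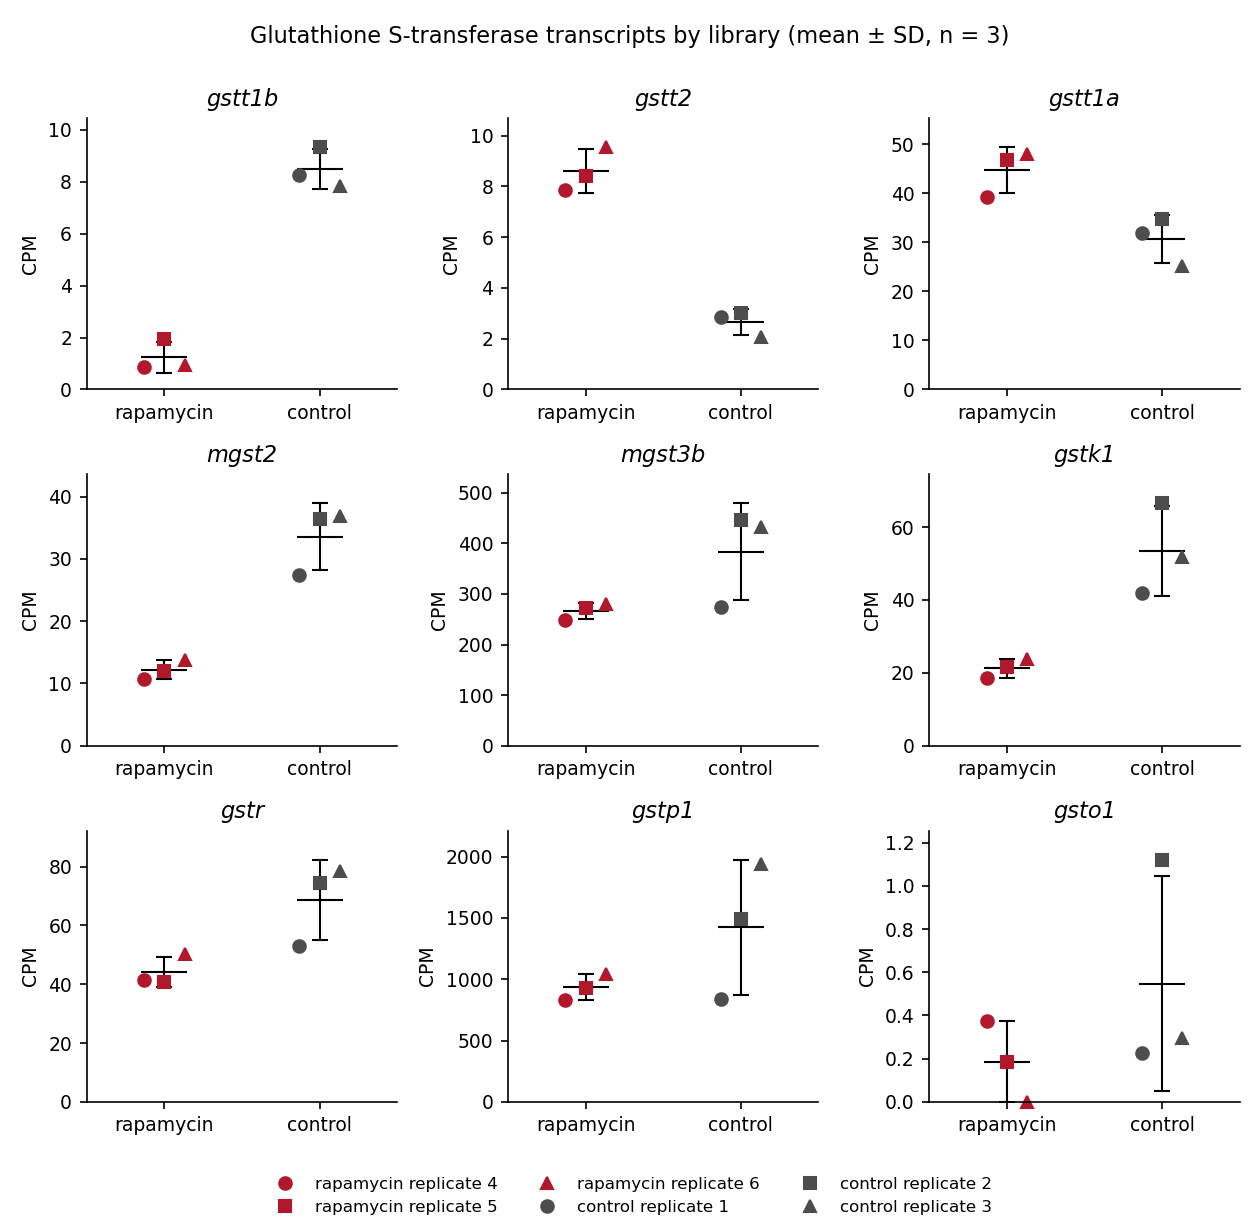
CPM of 9 glutathione S-transferase genes in each library (points, shaped by replicate), with the mean (horizontal bar) and SD (error bar) of the 3 rapamycin and the 3 control libraries; each panel has its own axis from 0. The 2 groups are separate for *gstt1b*, *gstt2*, *gstt1a*, *mgst2*, *gstk1* and *gstr*, and control replicate 1 lies within the range of the rapamycin libraries for *mgst3b* and *gstp1*. For *gsto1*, control replicates 1 and 3 both lie within that range.

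The theta class held the largest changes among the 9 genes in both directions. Theta enzymes are known in mammals for acting on small halogenated compounds. *gstt1b* (ENSDARG00000017388) had 0.864, 1.94 and 0.930 CPM in the rapamycin libraries, against 8.25, 9.33 and 7.86 CPM in the control libraries. Every rapamycin library lay far below every control library, and the rapamycin values rest on only 46, 105 and 49 counts. The means were 1.24 ± 0.601 CPM in the rapamycin group and 8.48 ± 0.765 CPM in the control group (SD, n = 3 each), a 6.82-fold lower level (log2 fold change -2.77, standard error 0.38, edgeR adjusted p = 0.00709).

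*gstt2* (ENSDARG00000095464) moved the other way. It had 7.85, 8.41 and 9.55 CPM in the rapamycin libraries, against 2.85, 3.02 and 2.06 CPM in the control libraries. The lowest rapamycin library was above the highest control library, and the control values rest on 175, 159 and 91 counts. The means were 8.60 ± 0.865 CPM in the rapamycin group and 2.64 ± 0.513 CPM in the control group (SD, n = 3 each), a 3.25-fold higher level (log2 fold change 1.70, standard error 0.28, edgeR adjusted p = 0.0121).

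The third theta gene, *gstt1a* (ENSDARG00000042428), had 39.3, 46.8 and 48.0 CPM in the rapamycin libraries, against 32.0, 34.8 and 25.2 CPM in the control libraries. The groups did not overlap, but the gap was narrow and the gene did not pass (log2 fold change 0.54, standard error 0.19, edgeR adjusted p = 0.126). After each library's trend with gene span was removed, limma called it higher (0.83, adjusted p = 0.0330), with 6.94% of the genes that had a span called. RefSeq places the 3 theta genes on different chromosomes, so they are not neighbours.

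A ratio of 2 genes within a library does not depend on how the libraries are scaled to each other, so the theta genes were also compared in this way. *gstt2* had 9.09, 4.34 and 10.3 counts for each count of *gstt1b* in the rapamycin libraries, against 0.345, 0.324 and 0.262 in the control libraries. The count ratio was above 1 in every rapamycin library and below 1 in every control library. On the log2 scale, with 0.5 added to each count, the ratio averaged 2.88 ± 0.667 in the rapamycin group and -1.69 ± 0.206 in the control group (SD, n = 3 each), a difference of 4.57 (p = 0.10 from an exact two-sided permutation test, the smallest that 3 against 3 libraries can give). The pair was chosen for its opposite changes, so its separation is a description and adds no evidence to the calls of the 2 genes.

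The other 2 ratios each hold 1 of these called genes, and are given as descriptions too. *gstt1a* to *gstt1b* averaged 5.25 ± 0.581 in the rapamycin libraries and 1.84 ± 0.143 in the control libraries (log2, SD, n = 3 each). The ratio of *gstt2* to *gstt1a* was the tightest within each group, at -2.38 ± 0.0869 in the rapamycin libraries and -3.54 ± 0.0635 in the control libraries (log2, SD, n = 3 each), a difference of 1.16.

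**Figure D2:**
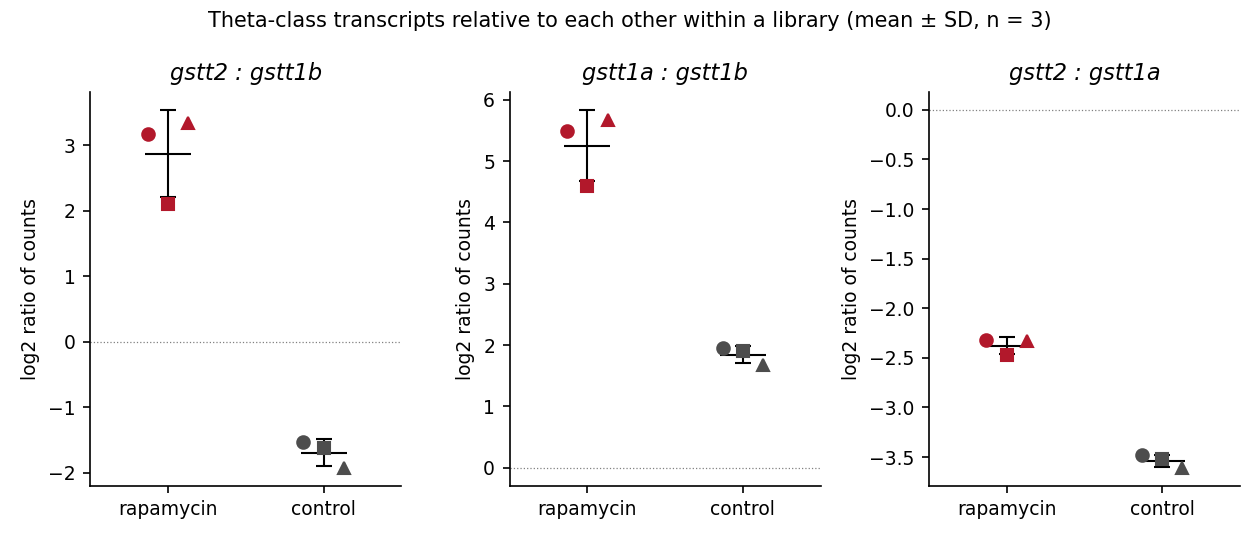
Log2 ratio of the counts of 2 theta-class genes within each library (points, shaped by replicate as 4, 5, 6 and 1, 2, 3), with the mean and SD of the 3 rapamycin and the 3 control libraries; the dotted line marks equal counts. The *gstt2* to *gstt1b* ratio lies between 2.11 and 3.35 in the rapamycin libraries and between -1.93 and -1.53 in the control libraries.

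Of the membrane-bound enzymes, *mgst2* fell and *mgst3b* did not pass. In humans both proteins have glutathione-dependent peroxidase activity and *MGST2* can make leukotriene C4. *mgst2* (ENSDARG00000071345) had 10.7, 12.02 and 13.8 CPM in the rapamycin libraries, against 27.4, 36.3 and 37.0 CPM in the control libraries. The groups lay well apart. The means were 12.2 ± 1.54 CPM in the rapamycin group and 33.5 ± 5.37 CPM in the control group (SD, n = 3 each), a 2.75-fold lower level (log2 fold change -1.46, standard error 0.21, edgeR adjusted p = 0.00761).

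*mgst3b* (ENSDARG00000033364) had 248, 272 and 280 CPM in the rapamycin libraries, against 274, 446 and 432 CPM in the control libraries. Control replicate 1 lay among the rapamycin libraries, and the other control libraries lay above all of them. Its log2 fold change of -0.53 did not pass (standard error 0.21, edgeR adjusted p = 0.177).

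The kappa gene *gstk1* (ENSDARG00000056510) fell. It had 18.6, 21.6 and 23.7 CPM in the rapamycin libraries, against 42.0, 66.5 and 51.9 CPM in the control libraries, with no overlap. The means were 21.3 ± 2.61 CPM in the rapamycin group and 53.5 ± 12.3 CPM in the control group (SD, n = 3 each), a 2.51-fold lower level (log2 fold change -1.33, standard error 0.21, edgeR adjusted p = 0.0120). RefSeq places *gstk4* inside the span of *gstk1*. The table gives *gstk4* 0 counts in all 6 libraries, and whether reads of the overlapping gene were counted as *gstk1* cannot be told.

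The rho class is found in fish. *gstr* (ENSDARG00000042620) had 41.3, 40.9 and 50.2 CPM in the rapamycin libraries, against 53.1, 74.4 and 78.6 CPM in the control libraries. The groups did not overlap, with control replicate 1 closest to the rapamycin libraries. The log2 fold change was -0.64 (standard error 0.20) and did not pass in edgeR (adjusted p = 0.0934), while DESeq2 called it lower (adjusted p = 0.0340), with 12.8% of all tested genes called by that tool.

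*gstp1* (ENSDARG00000104068), the pi-class gene induced by Nrf2 in zebrafish, had 834, 928 and 1044 CPM in the rapamycin libraries, against 838, 1492 and 1937 CPM in the control libraries. The rapamycin libraries were alike and the control libraries were widely spread, with a coefficient of variation of 11.3% in the rapamycin group and 38.9% in the control group. Its log2 fold change of -0.61 did not pass (standard error 0.28, edgeR adjusted p = 0.237). RefSeq places *gstp1.1* next to this gene. *gstp1.1* had 0, 0 and 46 counts in the rapamycin libraries and 0, 0 and 84 in the control libraries, and how reads were divided between these paralogs is not known here.

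The omega gene *gsto1* (ENSDARG00000022183), an enzyme with glutaredoxin-like activity, was close to the detection limit. It had 20, 10 and 0 counts in the rapamycin libraries and 14, 59 and 13 in the control libraries. The 0 counts in rapamycin replicate 6 allow up to 0.0569 CPM (3 counts), counting error only. The groups overlapped and the log2 fold change of -1.54 had a standard error of 1.25 (adjusted p = 0.491 from edgeR), so no difference was detected. The counts of the libraries within a group were far apart.

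The other GST genes of the table were read for comparison, as all rows whose symbol begins with gst or mgst, a rule set after the values had been seen. There were 23 such IDs with the 9 above, and 20 of them were tested. Of the 11 tested IDs outside the 9, 3 fell and 8 did not pass, a called share of 27.3%, against 5.24% of all tested genes (3.27% lower). None rose in edgeR, DESeq2 or limma-voom, and at an unadjusted p under 0.05 in edgeR 6 were lower and 0 higher. Over all 19778 tested genes, 4622 were below that p in either direction. DESeq2 called 6 of the 11 lower, with 12.8% of all tested genes called. The median log2 fold change of the 11 was -0.67.

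One of 3 IDs named GSTM3 (ENSDARG00000088116) had the lowest log2 fold change of the 11. This mu-class gene had 26.1, 26.3 and 21.98 CPM in the rapamycin libraries, against 83.2, 105 and 65.9 CPM in the control libraries, which gave -1.77 on the log2 scale (standard error 0.21, edgeR adjusted p = 0.00498). The groups lay well apart. The other IDs named GSTM3 had log2 fold changes of -0.67 (adjusted p = 0.0594) and -0.28 (adjusted p = 0.510 from edgeR), and how reads were divided between these paralogs is uncertain.

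The omega gene *gsto2*, next to *gsto1* in RefSeq, had 56.6, 56.3 and 48.2 CPM in the rapamycin libraries, against 82.0, 151 and 115 CPM in the control libraries (log2 fold change -1.11, standard error 0.23, adjusted p = 0.0280 from edgeR). The groups did not overlap. The alpha-class gene *gsta.1* had 69.5, 69.4 and 88.3 CPM in the rapamycin libraries, against 141, 189 and 135 CPM in the control libraries (log2 fold change -1.03, standard error 0.20, adjusted p = 0.0218 from edgeR). *gsta.2* and *gstz1*, which acts in tyrosine breakdown, had log2 fold changes of -0.82 and -0.82 and did not pass (adjusted p = 0.0914 and 0.0843 from edgeR).

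Several membrane-bound members of the family had a log2 fold change near 0. One of the 2 IDs named MGST1 (ENSDARG00000022165) had 252, 300 and 288 CPM in the rapamycin libraries, against 250, 338 and 303 CPM in the control libraries (log2 fold change -0.09, standard error 0.18, edgeR adjusted p = 0.804). The other (ENSDARG00000032618) had 61.5, 68.4 and 64.9 CPM in the rapamycin libraries, against 47.8, 65.6 and 79.8 CPM in the control libraries (log2 fold change 0.01, standard error 0.20, edgeR adjusted p = 0.980). In both, the groups overlapped. For MGST3 (ENSDARG00000102744) the log2 fold change was -0.16 with a standard error of 0.18. Summed over all 23 IDs, GST transcripts reached 1870, 2062 and 2214 CPM in the rapamycin libraries, against 2130, 3357 and 3642 CPM in the control libraries. Control replicate 1 thus lay within the range of the rapamycin libraries, and *gstp1* made up 44.6%, 45.0% and 47.2% of the counts of these IDs in the rapamycin libraries and 39.3%, 44.5% and 53.2% in the control libraries.

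**Figure D3:**
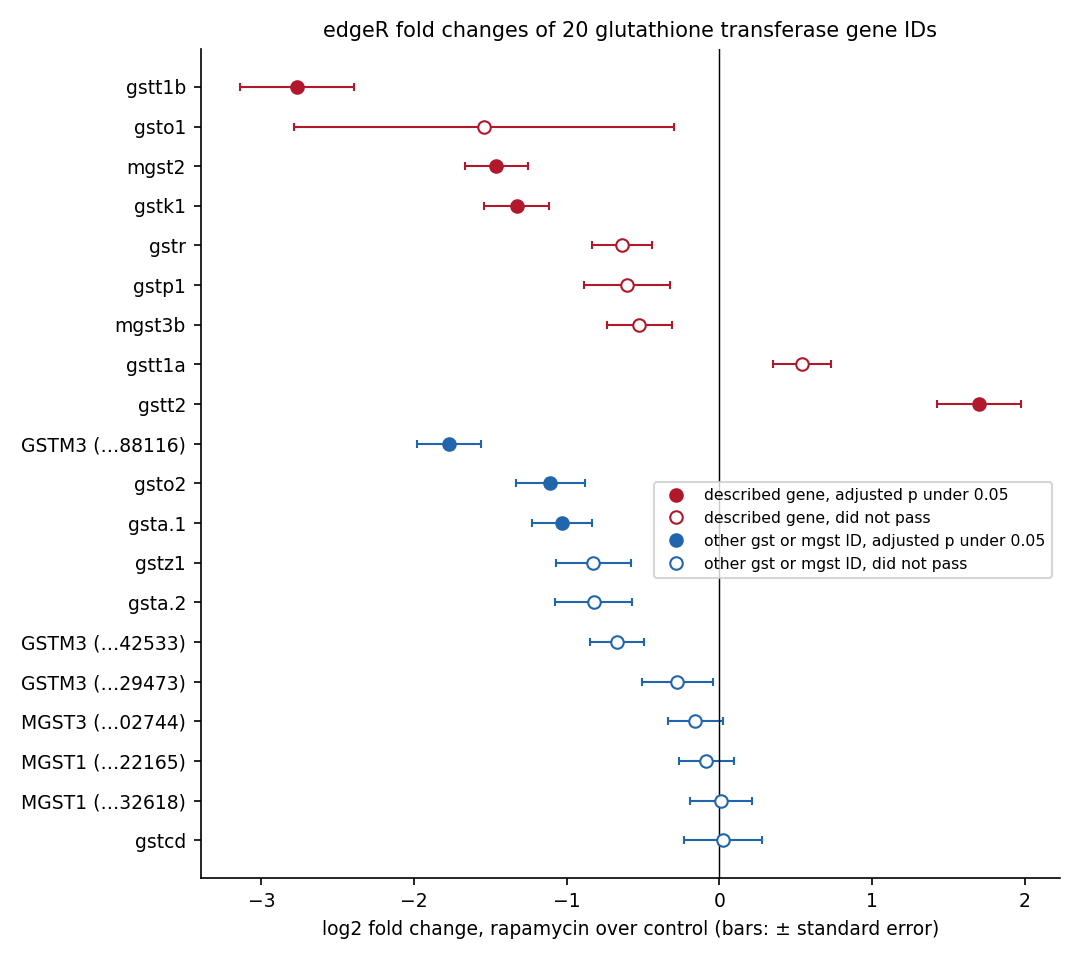
Log2 fold change of rapamycin over control from edgeR with its standard error (bars) for 20 tested glutathione transferase gene IDs; red, the 9 genes described one by one, blue, the other IDs, filled where the adjusted p was under 0.05. Of the 20, 6 are filled below 0 and 1, *gstt2*, is filled above 0; names in capitals carry the last digits of their ID.

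The genes that make, recycle and use glutathione were read beside the transferases from lists chosen with earlier results known. Of 16 tested genes of glutathione synthesis and breakdown, 1 fell and 15 did not pass, with a median log2 fold change of -0.22. The called share of 6.25% was close to the 5.24% of all tested genes. The gene that fell, *cndp2*, encodes a peptidase that splits the dipeptide left by glutathione breakdown (-0.71, standard error 0.16, adjusted p = 0.0382 from edgeR). *oplah*, which returns 5-oxoproline to glutamate, had a log2 fold change of 0.80 (adjusted p = 0.0618), *ggt7* one of 0.69 (adjusted p = 0.0744) and *chac1*, which degrades glutathione, one of -0.80 (adjusted p = 0.0960 from edgeR).

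Of 25 genes of glutathione-dependent reduction and related detoxification, 3 fell, 1 rose and 21 did not pass, with a median of -0.37. The called share was 16.0%, against 5.24% of all tested genes (1.97% higher and 3.27% lower). *esd*, which completes the glutathione-dependent removal of formaldehyde, had 31.9, 34.2 and 37.5 CPM in the rapamycin libraries, against 69.6, 94.8 and 101 CPM in the control libraries (log2 fold change -1.36, standard error 0.19, adjusted p = 0.00761 from edgeR). The peroxiredoxin gene *prdx4* of the endoplasmic reticulum (-1.24, adjusted p = 0.0254) and the superoxide dismutase gene *sod2* of mitochondria (-0.90, adjusted p = 0.0457 from edgeR) fell as well. *h6pd*, which makes NADPH in the endoplasmic reticulum, rose (1.08, adjusted p = 0.0450 from edgeR).

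Of 15 tested genes of the Nrf2 and Keap1 system, which include other known Nrf2 targets, none passed in edgeR, DESeq2 or limma-voom. At an unadjusted p under 0.05 in edgeR there were 2, against 4622 of all 19778 tested genes, and the median log2 fold change was 0.04. The lowest adjusted p was that of *nfe2l1b*, a relative of Nrf2 (0.72, adjusted p = 0.142 from edgeR). The cystine transporter gene *slc7a11* had -1.14 (adjusted p = 0.196), the ferritin gene *fth1a* -0.34 (adjusted p = 0.250) and *sqstm1* 0.32 (adjusted p = 0.273 from edgeR). The Nrf2 gene *nfe2l2a* is not among the matched names, and 15 of the 27 names on this list were matched. Of these, *slc7a11*, *gclc* and *gclm* are also in the synthesis list, and *srxn1* and *txnrd3* in the reduction list. The counts of these lists are therefore not independent.

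A list of exporters of conjugates and drugs also held the mitochondrial carrier genes *slc25a39* and *slc25a40*. Of its 12 tested genes, *abcb4* rose and 11 did not pass, with a median of 0.06. The called share of 8.33% was near the 5.24% of all tested genes. *abcb4*, a multidrug transporter of the ABCB family, had 10.1, 15.1 and 5.64 CPM in the rapamycin libraries, against 1.71, 1.14 and 0.362 CPM in the control libraries (log2 fold change 3.25, standard error 0.56, adjusted p = 0.0156 from edgeR). *abcc1*, an exporter of glutathione conjugates, had a log2 fold change of 0.85 (adjusted p = 0.127), *abcg2c* -0.61 (adjusted p = 0.105) and *abcc5* 0.50 (adjusted p = 0.242 from edgeR). Of the list of other transferases and MAPEG proteins, 8 genes were tested, and *gsta.1* and *gsto2* fell. Both are among the 11 other IDs above, so they are no further calls. The called share was 25.0%, against 5.24% of all tested genes. Without control replicate 1, edgeR called 31.1% of all 20220 genes tested in that fit, 3128 higher and 3151 lower. Of the 25 genes of reduction and detoxification it called 2 higher and 16 lower in that fit. Of the 16 of synthesis and breakdown it called 2 higher and 6 lower. For the 12 genes of the exporter list there were 4 higher and 4 lower, and for the 15 of the Nrf2 and Keap1 system 2 higher and 3 lower. Without control replicate 2 or rapamycin replicate 4 or 5, it called none of the genes of the synthesis, reduction and exporter lists. These fits called 0.567%, 0.617% and 0.548% of all tested genes. At an unadjusted p under 0.05 in edgeR there were 2 to 7 of each list. The share of all genes at that p is not given for these fits.

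For each called gene, the 3 genes with the most similar course over the 6 libraries were taken from 9099 genes with a mean log2 CPM of at least 3, by the root mean square distance of log2 CPM centred on the gene's mean. The closest to *gstk1* was *gpx7*, a glutathione peroxidase of the endoplasmic reticulum, at a distance of 0.0539. Another glutathione peroxidase gene, *gpx1b*, followed at 0.103 and *iah1* at 0.12. The closest to *mgst2* was *esd* at 0.0745, the gene of formaldehyde removal above, before *rcn3* at 0.108 and *pgm3* at 0.123.

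The closest to *gstt2* was CYP1A1 (ENSDARG00000098315), a cytochrome P450 gene that acts in the first phase of detoxification, at 0.182. It had 136, 179 and 203 CPM in the rapamycin libraries, against 53.1, 65.5 and 53.8 CPM in the control libraries. *bcl10* at 0.198 and *wdr1* at 0.2 came next. For *gstt1b* the nearest genes searched were farther away, with *rtn4rl2b* at 0.373, CD82 (ENSDARG00000026070) at 0.432 and *nsfb* at 0.474. Both *gstt1b* and *gstt2* lie below the mean level required of the genes searched. The *gstt1b* values in the rapamycin libraries rest on 46, 105 and 49 counts. The part of low counts in its distances was not tested. The distances describe these 6 libraries, and any genes that differ between the groups by a like amount come out close in this measure.

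The 4 calls were also made with the size factors of DESeq2 (5.37% of tested genes called), upper quartile scaling (5.58%), no scaling beyond library size (5.11%), limma-voom (6.3%), no filter (4.36%) and a minimum of 10 counts in every library (7.44%). Some of these calls were lost with 1 library left out, in fits that also hold fewer libraries, while the directions were kept. Every one of the 9 genes kept the sign of its log2 fold change when any 1 library was left out. Control replicate 1 was the lowest control library for the 6 genes outside the theta class, and control replicate 3 for the 3 theta genes. Without control replicate 1, edgeR called 8 of the 9 genes, 2 higher and 6 lower, where 31.1% of all 20220 tested genes were called (3128 higher and 3151 lower). The added genes were *gstt1a* (adjusted p = 0.0360), *gstr* (adjusted p = 0.00264), *gstp1* (adjusted p = 0.00289) and *mgst3b* (adjusted p = 0.00173 from edgeR). The log2 fold change of *gstp1* was -0.89 in that fit and -0.32 without control replicate 3.

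Without control replicate 2, none of the 9 genes was called in edgeR, where 0.567% of all tested genes were called. The adjusted p in that fit lay at 0.0541 for *gstt1b*, 0.0578 for *mgst2*, 0.0612 for *gstt2* and 0.0671 for *gstk1*. At an unadjusted p under 0.05, 2 of the 9 were higher and 4 lower there. The share of all genes at that p is not given for this fit. With all libraries it was 4622 of 19778 genes in edgeR. Without rapamycin replicate 4, 5 or 6, edgeR called 1 gene each time, with 0.617%, 0.548% and 0.606% of all tested genes called. The gene was *gstt1b* without replicate 4 (adjusted p = 0.0494) and without replicate 5 (adjusted p = 0.0154), and *mgst2* without replicate 6 (adjusted p = 0.0469 from edgeR). Without control replicate 3, the same 4 genes were called as with all libraries, with 3.94% of all tested genes called. For *gsto1* the log2 fold change ran from -2.55 without rapamycin replicate 4 to -0.48 without control replicate 2.

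**Figure D4:**
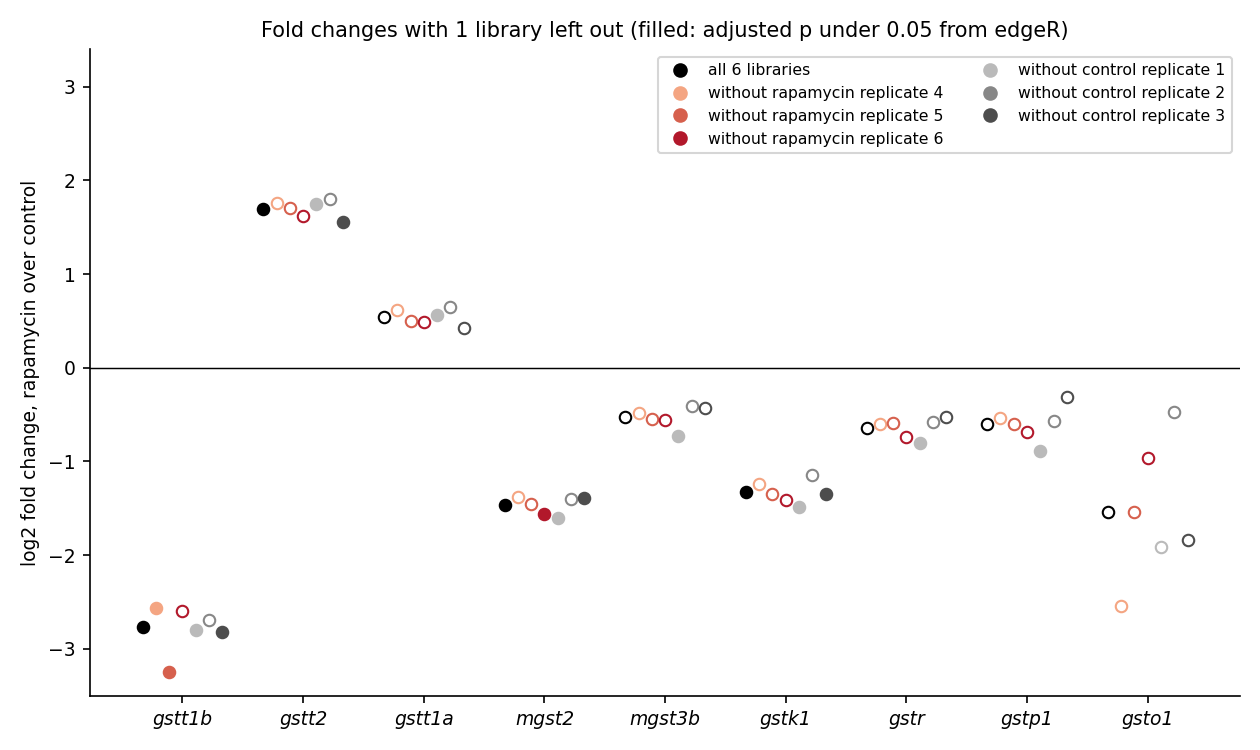
Log2 fold change of rapamycin over control for 9 glutathione S-transferase genes in the edgeR fit of all 6 libraries (black) and with 1 library left out (colours); filled points have an adjusted p under 0.05. No gene crosses 0, the values of *gstt1b* run from -3.24 to -2.57 and those of *gstt2* from 1.55 to 1.81, and 8 of the 9 genes are filled without control replicate 1.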

How the data were processed

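The authors extracted total RNA with Trizol and sequenced amplified fragments of SMARTScribe cDNA from both ends. The deposited table holds whole-number counts per gene, with no normalization. The tool that aligned and counted the reads is not given in the sources used here, nor whether strand was used. The processing notes of the submitters name the build mm10, while all gene IDs are zebrafish IDs. Gene symbols came from a table of gene names and were matched ignoring case. The RefSeq table of GRCz12tu served for synonyms, gene spans and neighbours only, and no coordinates are given, since the build of the counts is uncertain.

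Differences were tested with edgeR 4.0.16 under R 4.3.3, using filterByExpr, TMM scaling and the quasi-likelihood test with robust dispersion, fitted on the whole table with no covariate, and adjusted by Benjamini and Hochberg over 19778 genes. Each standard error is the log2 fold change over the square root of F. CPM values are scaled by TMM, and log2 CPM carries a prior count of 2. The ratio of a gene pair was compared by an exact permutation test over libraries in Python 3.11.15 with scipy 1.17.1. Alternatives used DESeq2 1.42.0, limma 3.58.1 (voom), other scalings and filters, removal of the trend with gene span by loess, and each library left out in turn.

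The genes and lists were chosen with earlier results of these data known. The genes named are the 9 matched members, the leading genes of each pathway list by adjusted p (at most 4), and the 3 nearest genes of each called member. Some cell type markers and other GST IDs are named too, and these follow no such ranking. Ratios and shares of genes within a library are of counts, without correction for transcript length, so they do not rank the genes by level. No molecular identifiers are described, so floors cover counting error only.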

Additional observations from a re-analysis of the deposited data

How the results depend on the processing

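Leaving out 1 library moved the calls more than the choice of tool, and such fits also hold fewer libraries. Over 125 alternative values of the 9 genes, 0 reversed in sign, 106 stayed on the same side of the threshold, 13 lost their call and 6 gained one. All 13 losses came from leaving out a library. Every scaling, filter and tool tried kept *gstt1b*, *gstt2*, *gstk1* and *mgst2* as called, and DESeq2 added *gstr*. After removal of the span trend, *gstt1a* was called as well (log2 fold change 0.83, adjusted p = 0.0330 from limma). In that fit, which called 6.94% of its genes, 2 of the 9 genes were called higher. Only 5 of the 11 other IDs had a span and were tested there, and of these 0 were called higher and 2 lower. *gstp1* moved to -0.34, *gstr* to -0.40 and *mgst3b* to -0.28. With 1 library left out, 0 to 2 of the 9 genes were called higher and 0 to 6 lower, and 0 to 2 and 1 to 12 of the 20 tested IDs, an alternative for the wider family that was added after seeing the data. DESeq2 called 10 of the 20 IDs lower, against 6 in edgeR. Over all genes, DESeq2 called 1000 higher and 1539 lower, against 390 and 647 in edgeR, and leaving out 1 library gave 47 to 3128 higher and 65 to 3151 lower. The difference of the *gstt2* to *gstt1b* ratio was 4.53 with a prior count of 2 and 4.34 to 4.95 with 1 library left out. The cause of these shifts was not tested. *gsto1* has no value with at least 10 counts in every library, since it did not reach that minimum. No paired analysis was run. The control and rapamycin libraries share no replicate numbers, and whether any of them belong together, for example by clutch, is not stated. Counts were low for *gsto1* in every library and for *gstt1b* in the rapamycin libraries. They were also low for *gstt2* in the control libraries (175, 159 and 91). The part of depth was not tested.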
